A study of Mus musculus with 12 samples.

Results

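The 36 genes described here encode the soluble hydrolases of the lysosome, the activators that present substrates to them and the main proteins of the lysosomal membrane, with progranulin and the transcription factor TFEB. They were taken by name from the 55573 genes of the count table as a list of lysosomal genes without the cathepsins, and by role they comprise 9 membrane proteins, 12 glycosidases, 5 sulfatases, 4 lipid hydrolases, 2 activators, 2 proteases, Grn and Tfeb. Each of the 12 libraries held RNA of 1 whole right hippocampus from a C57BL/6J mouse aged 4.5 months, of which 4 females and 4 males were APPSwe/Ps1dE9 (APP/PS1) and 2 females and 2 males were wild type (WT). APP/PS1 mice express a chimeric mouse/human APP with familial Alzheimer's disease mutations and human PS1 lacking exon 9, both driven by a prion promoter element, while WT mice carry neither transgene. No drug or other treatment is named for these 12 mice. Each sex therefore rested on 2 WT mice.

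Lysosomes are the acidic compartment in which cells take apart proteins, glycans, glycolipids and stored lipids, and inherited loss of single hydrolases causes the lysosomal storage diseases, many of which affect the brain. Each hydrolase cuts a particular kind of bond, so that a sugar chain or sphingolipid is degraded stepwise by several of them, helped by activator proteins that lift lipids out of the membrane. All cells of the hippocampus have lysosomes, but microglia, the phagocytes of the brain, are especially rich in them and take up amyloid-beta. Many lysosomal genes carry the letters CACGTG near their start, the core of the element that TFEB and its relatives bind.

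The sequence before the start of transcription was examined because several of the 36 genes differed together between genotypes. Promoters were found in the RefSeq table (GRCm38.p6) for 33 of the 36 genes, and those of Asah1, Galns and Hgsnat are named only. In the 250 bases before the start, CACGTG, which reads the same on both strands, was present for 9 of 33 genes (27.3%), against 6.86% of 27025 genes with a promoter and 9.89% of the 10615 of them that were tested. The longer TCACGTG, searched on both strands and containing CACGTG, was present in the same 9 genes, against 3.58% of all genes and 5.7% of those tested. TCACGTGA, which contains both, was present for 2 genes (Gla and Mcoln1), against 0.907% and 1.74%. The 9 genes were Arsa, Gaa, Gla, Glb1, Lamp1, Lgmn, Mcoln1, Naglu and Sgsh. By edgeR's quasi-likelihood test none of them was called between genotypes, but the likelihood ratio test and DESeq2 also called Naglu and Lgmn. The letters were thus present for 0 of the 8 called genes with a promoter in the table and 9 of the 25 uncalled ones (36%), a contrast that was not tested, and 0 of 8 is to be read beside the 9.89% of all tested genes. The 100 bases before the start are shown for Lamp1 and Lgmn, which hold CACGTG (in capitals), and for Cd68 and Gusb, called genes with large differences, which hold none. The windows are chr8:13159061-13159160 on the plus strand for Lamp1, chr12:102439093-102439192 on the minus strand for Lgmn, chr11:69666171-69666270 on the minus strand for Cd68 and chr5:130003050-130003149 on the minus strand for Gusb. None overlaps an exon annotated in GENCODE M21, and that of Lgmn lies in an intron of the gene.
Lamp1: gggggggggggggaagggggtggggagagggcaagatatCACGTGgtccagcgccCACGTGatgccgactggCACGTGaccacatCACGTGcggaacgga
Lgmn: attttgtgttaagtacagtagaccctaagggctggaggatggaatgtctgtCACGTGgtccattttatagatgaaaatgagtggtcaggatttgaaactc
Cd68: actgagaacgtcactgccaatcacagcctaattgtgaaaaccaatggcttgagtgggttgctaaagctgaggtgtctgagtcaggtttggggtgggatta
Gusb: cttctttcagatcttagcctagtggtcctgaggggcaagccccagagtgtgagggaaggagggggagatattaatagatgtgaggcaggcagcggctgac
In Lamp1 the 4 matches began 61, 45, 28 and 15 bases before the start, and in Lgmn the single match began 49 bases before it. The other start of Lgmn in the table holds no match. Its window, chr12:102439729-102439828, lies at the annotated 5' end of the gene (102439813). Genes with several starts were counted when any start held a match, so Lgmn is counted by its start inside the gene. The letters describe these windows only, and no binding was measured.

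Total counts per library ranged from 36714316 to 50643565, and each of the 36 genes had between 175 and 73339 reads in every library, so that all 36 were among the 14008 genes tested. Of 4 hippocampal marker genes all were detected (Prox1, Wfs1, Zbtb20 and Fibcd1) and none was called. Levels are given as normalized CPM, counts scaled to the size of the library. Of the 12 libraries 3 stood apart in transthyretin (Ttr), the main secreted protein of the choroid plexus, which was at 3647 normalized CPM in WT female 2, 6362 in APP/PS1 male 2 and 3530 in APP/PS1 female 1, and at 2.69 to 18.3 in the others. App did not separate the genotypes, at 1540 to 1659 normalized CPM in APP/PS1 mice and 1550 to 1716 in WT mice. Prnp, whose promoter element drives the transgenes, was at 720 to 822 and 741 to 815. Thy1, a surface protein of neurons, was at 2173 to 3311 in APP/PS1 mice and 726 to 747 in WT mice, which separated all libraries by their labels, and the reason was not tested.

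In APP/PS1 mice 9 of the 36 lysosomal genes were higher than in WT mice when both sexes were averaged, and none was lower. The microglial membrane proteins Cd68 and Laptm5 and the glycosidase Gusb differed most, followed by progranulin (Grn), the glycosidases Man2b1 and Hexa, the membrane proteins Cd63 and Lamp2, and acid ceramidase (Asah1). Their log2 fold changes ranged from 0.25 to 1.67. Markers of microglia were higher too, 8 of 14 of them called, and in whole hippocampus more cells of a type and more RNA per cell cannot be told apart. A gene was called at a false discovery rate (FDR) under 0.1, in edgeR's quasi-likelihood test with Benjamini-Hochberg adjustment over all 14008 genes, and that test called 1.7% of all genes higher and 0.15% lower. The likelihood ratio test of edgeR and DESeq2 each called 11 of the 36 genes higher and none lower, adding Naglu and Lgmn to the same 9, against 2.31% and 2.16% of all genes called higher. At an unadjusted p under 0.05, 16 of the 36 genes were higher and 1 was lower, against 6.15% and 3.31% of all genes. The log2 fold change was above zero for 29 of the 36 genes (80.6%), with a median of 0.08, against 54.5% and 0.01 over all genes tested. Leaving out APP/PS1 male 2 gave 5 of the 36 genes called. Over all genes that fit called 154 of 13893 in either direction, against 259 of 14008 with all mice. Leaving out any 1 WT mouse, which left 1 WT mouse in its sex, also lost calls, and without WT female 1 Arsb was gained. The median log2 fold change of the 36 genes in these fits was 0.08 to 0.11. Just inside the threshold was Cd63 (adjusted p = 0.0870), and just outside was Naglu (adjusted p = 0.113), both in edgeR's quasi-likelihood test.

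**Figure D1:**
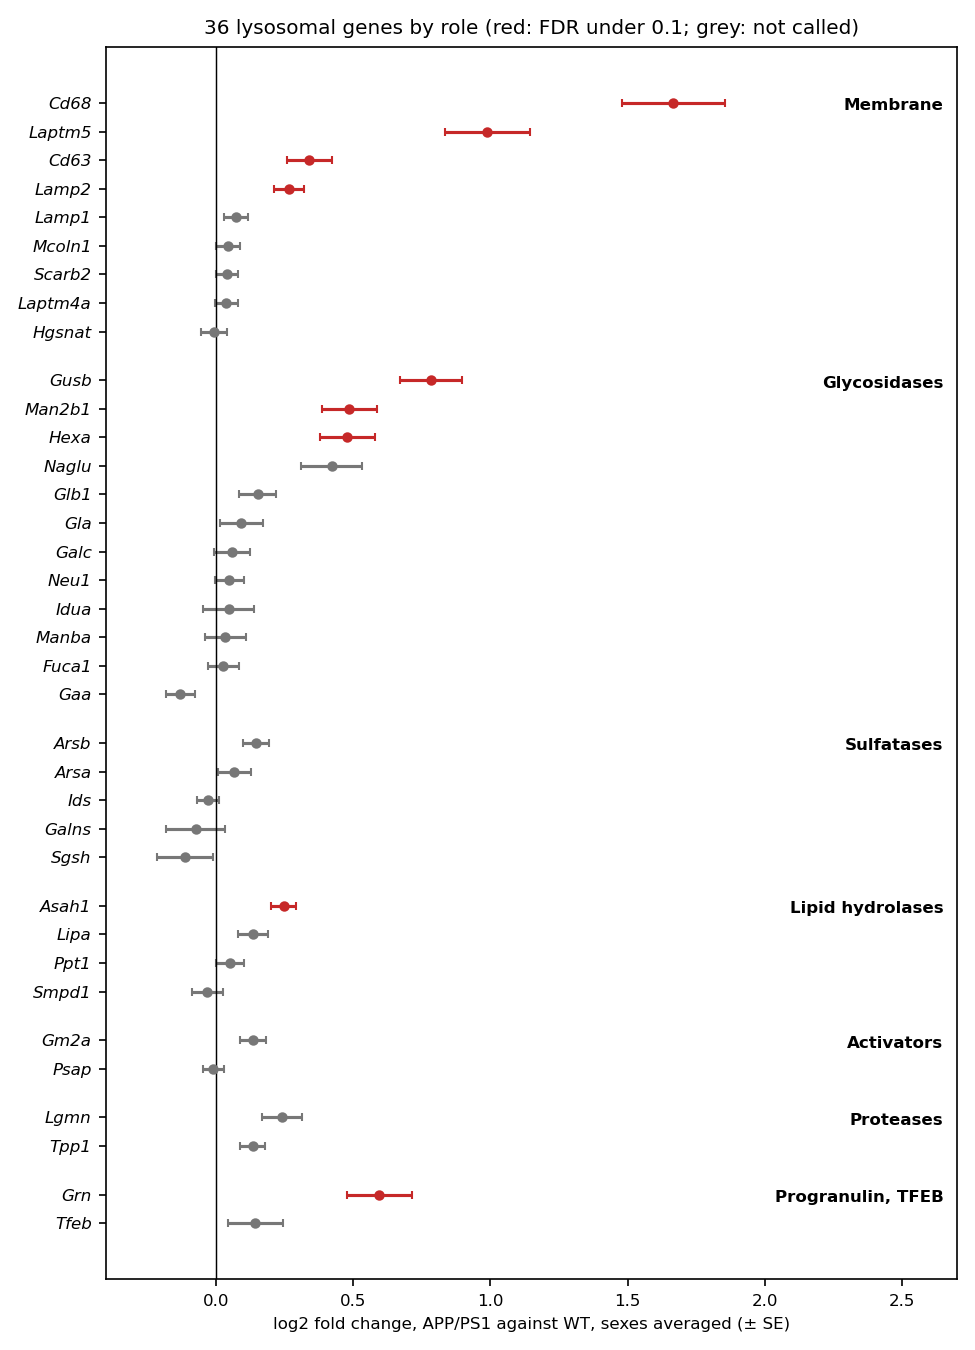
Log2 fold change of each of the 36 genes in APP/PS1 against WT mice, sexes averaged (points, with bars for the standard error of the fit), grouped by role. Red points are the 9 genes called at an FDR under 0.1, all to the right of zero from 0.25 (Asah1) to 1.67 (Cd68), and grey points are the 27 others, between -0.13 and 0.42.

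Among the membrane proteins, 4 of 9 were called. Cd68 (ENSMUSG00000018774, chr11:69664213-69666153, minus strand, GRCm38) is a heavily glycosylated membrane protein of the lysosomes of macrophages and microglia. Its level was 21.1, 18.7, 26.0 and 14.99 normalized CPM in the 4 APP/PS1 females and 5.85 and 5.66 in the WT females, and 19.2, 18.3, 11.9 and 14.3 in the APP/PS1 males and 4.95 and 6.23 in the WT males. Every APP/PS1 mouse was above every WT mouse, with the lowest APP/PS1 mouse (male 3) far from the highest WT mouse (male 2). The log2 fold change was 1.67 ± 0.19 (SE), a 3.17-fold difference (adjusted p = 0.00352 in edgeR's quasi-likelihood test). In an exact permutation test on the log2 level, two-sided over all ways to choose 8 of 12 mice, p was 0.00202, the smallest it can give. In all, 6 of the 36 genes separated the genotypes in this way in all mice, as did 1.31% of the genes tested; none was lower in all APP/PS1 mice than in all WT mice, as 0.136% of the genes tested were.

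Laptm5 (chr4:130913125-130936141, plus strand), a lysosomal transmembrane protein of blood and immune cells, was at 42.1, 36.8, 56.2 and 38.9 normalized CPM in APP/PS1 females against 23.0 and 19.4 in WT females. In males it was at 49.0, 53.8, 37.8 and 38.1 against 20.2 and 24.5. The groups did not overlap, and the log2 fold change was 0.99 ± 0.16 (SE; adjusted p = 0.0241 in edgeR's quasi-likelihood test), which without WT female 2 was 0.90 (adjusted p = 0.128) and without the filter on low counts 0.99 (adjusted p = 0.130). Lamp2 (chrX:38401357-38456454, minus strand), with Lamp1 one of the major glycoproteins of the lysosomal membrane, was at 132.9, 99.6, 112.0 and 108.6 in APP/PS1 females and 80.7 and 108.3 in WT females. In males the levels were 113.2, 159.0, 94.9 and 85.0 in APP/PS1 and 91.7 and 77.6 in WT. Here the genotypes overlapped, with 5 of 8 APP/PS1 mice above the highest WT mouse, and the log2 fold change was 0.27 ± 0.05 (SE; adjusted p = 0.0362 in edgeR's quasi-likelihood test). Cd63 (chr10:128900989-128912822, plus strand), a tetraspanin of late endosomes and lysosomes, was at 89.4, 64.5, 78.3 and 62.0 in APP/PS1 females against 47.6 and 71.2 in WT females, and at 73.0, 111.3, 60.5 and 53.7 in APP/PS1 males against 54.7 and 50.4 in WT males. Its genotypes overlapped as well, and the log2 fold change was 0.34 ± 0.08 (SE; adjusted p = 0.0870 in edgeR's quasi-likelihood test).

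For both Lamp2 and Cd63 the 2 highest APP/PS1 libraries and the highest WT library were the 3 with high transthyretin. Of the uncalled genes, Tpp1, Gm2a, Fuca1, Lipa and Psap were likewise highest in these 3 libraries within each genotype. Without these 3 libraries, a comparison added after the data had been seen, the log2 fold change was 0.28 for Lamp2 (adjusted p = 0.117) and 0.36 for Cd63 (adjusted p = 0.154, both in edgeR's quasi-likelihood test) and neither was called. Without APP/PS1 male 2 alone they were 0.19 (adjusted p = 0.454) and 0.25 (adjusted p = 0.623). Lamp2 was also not called without WT female 1 (adjusted p = 0.124) or WT male 2 (adjusted p = 0.157). In edgeR's quasi-likelihood test without the 2 factors of unwanted variation, terms of the model estimated from genes that differ little between the groups, neither gene was called (adjusted p = 0.737 for Lamp2 and 0.749 for Cd63), nor was Lamp2 with 1 factor (adjusted p = 0.121) or Cd63 without the filter on low counts (adjusted p = 0.345). The call of Cd63 was lost in 8 of the 12 fits that left out 1 mouse, with adjusted p of 0.126 to 0.623, and was kept without APP/PS1 female 1, 3 or 4 or APP/PS1 male 4. The exact permutation p was 0.0727 for Lamp2 and 0.0788 for Cd63.

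The other 5 membrane proteins were not called. Lamp1 was at 273 to 326 normalized CPM in APP/PS1 mice and 281 to 298 in WT mice (log2 fold change 0.07 ± 0.05), with all 4 APP/PS1 females above both WT females and no such order in males. The log2 fold changes were 0.04 ± 0.04 each for Mcoln1, the calcium-permeable TRPML1 channel, for Scarb2, the receptor that carries glucocerebrosidase to the lysosome, and for Laptm4a. That of Hgsnat, which acetylates heparan sulfate across the lysosomal membrane, was -0.01 ± 0.05. Reads of Lamp1 could include those of 1 antisense gene whose exons overlap it, since the strand option of the counting is not given in the sources used here.

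**Figure D2:**
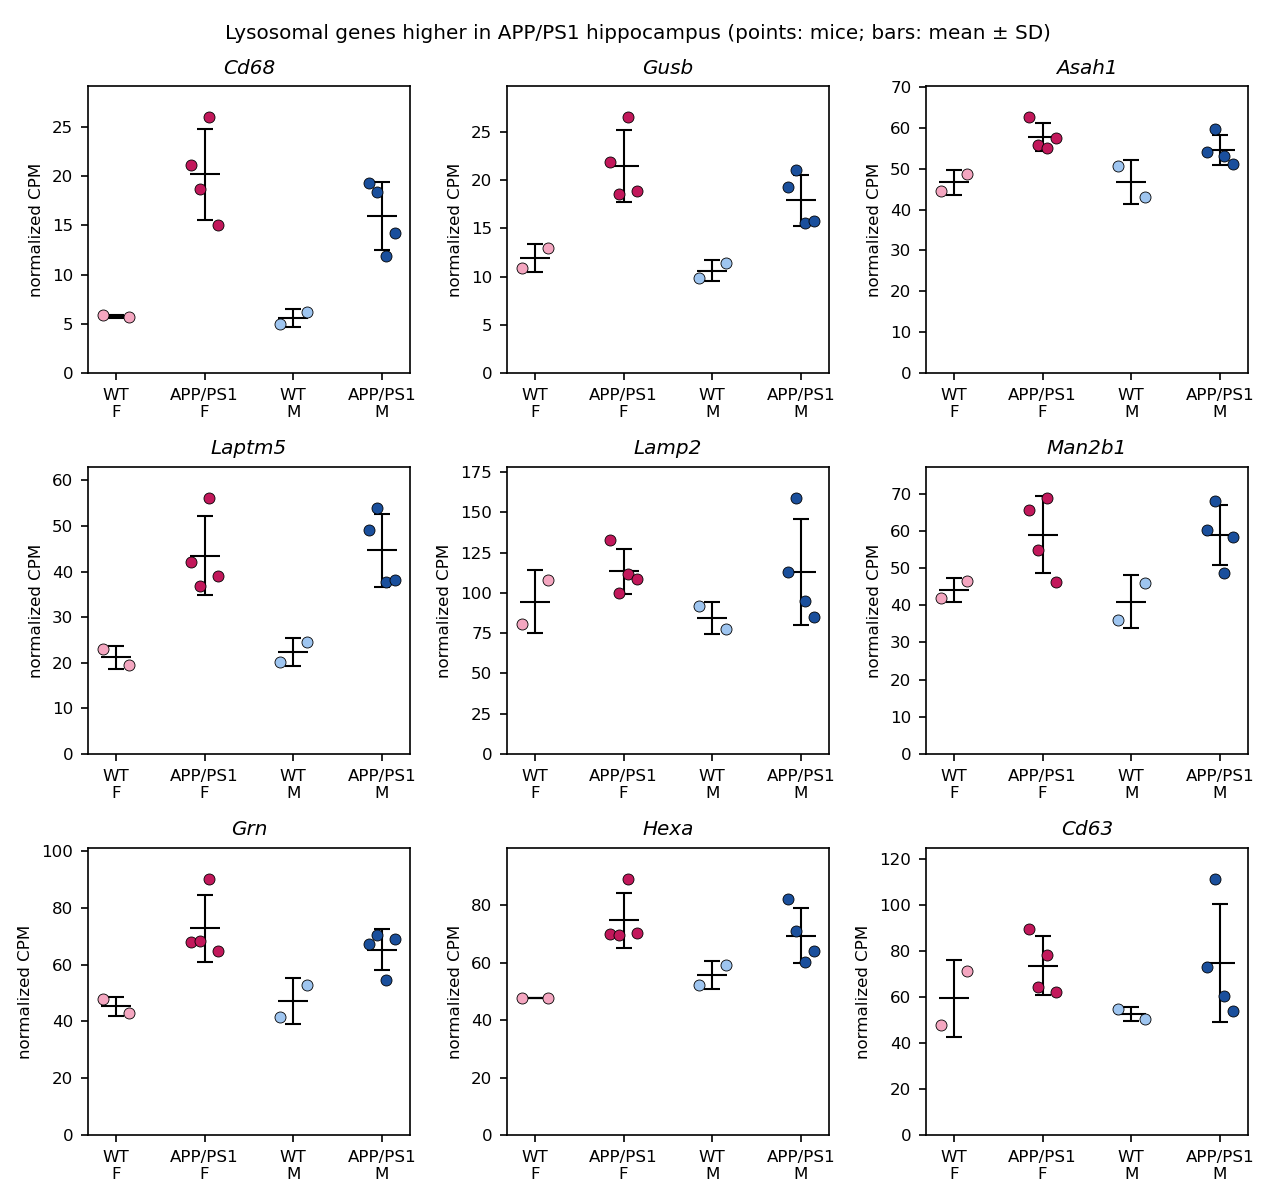
Normalized CPM of the 9 called genes in each mouse (points), by sex and genotype, with the mean and SD of each group (bars; n = 4 APP/PS1 and 2 WT mice a sex). Every axis starts at 0. The genotypes do not overlap for Cd68, Gusb, Asah1, Laptm5, Grn and Hexa, and overlap for Lamp2, Man2b1 and Cd63.

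Of the 12 glycosidases 3 were called, and they act on different bonds. Gusb (chr5:129989011-130003049, minus strand), beta-glucuronidase, which removes glucuronic acid from glycosaminoglycans, was at 21.9, 18.6, 26.6 and 18.9 normalized CPM in APP/PS1 females and 10.9 and 12.97 in WT females. In males it was at 19.3, 21.0, 15.6 and 15.8 against 9.82 and 11.4. All APP/PS1 mice were above all WT mice, and the log2 fold change was 0.78 ± 0.11 (SE; 1.72-fold, adjusted p = 0.00604 in edgeR's quasi-likelihood test). Man2b1 (chr8:85083270-85098282, plus strand), the lysosomal alpha-mannosidase, was at 65.6, 55.0, 68.9 and 46.3 in APP/PS1 females and 41.8 and 46.5 in WT females, and at 60.3, 68.0, 48.5 and 58.2 in APP/PS1 males and 35.99 and 45.9 in WT males. A single APP/PS1 mouse, female 4, lay below the highest WT mouse, and the log2 fold change was 0.49 ± 0.10 (SE; adjusted p = 0.0474 in edgeR's quasi-likelihood test). Its call was lost without WT female 1, WT female 2, APP/PS1 male 2 or WT male 1, with adjusted p between 0.127 and 0.210, and in edgeR's quasi-likelihood test without the factors of unwanted variation (adjusted p = 0.133).

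Hexa (chr9:59539540-59565109, plus strand), the alpha subunit of beta-hexosaminidase, which degrades GM2 ganglioside, was at 70.0, 69.6, 89.2 and 70.2 normalized CPM in APP/PS1 females and 47.5 and 47.7 in WT females. In males it was at 82.1, 70.9, 60.4 and 64.1 against 52.1 and 59.0. The genotypes did not overlap, although the gap was wide in females and narrow in males, where APP/PS1 male 3 lay just above WT male 2. The log2 fold change was 0.48 ± 0.10 (SE; 1.39-fold, adjusted p = 0.0546 in edgeR's quasi-likelihood test), and the call was lost in 6 of the 12 fits that left out 1 mouse, namely APP/PS1 female 2, WT female 1, WT female 2, APP/PS1 male 2, WT male 1 or WT male 2. The adjusted p in these fits ran from 0.1003 to 0.235. One antisense gene overlaps its exons.

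Naglu, the alpha-N-acetylglucosaminidase of heparan sulfate, was at 11.96, 9.48, 12.1 and 9.48 normalized CPM in APP/PS1 females and 7.25 and 8.97 in WT females, and at 8.97, 12.9, 6.76 and 8.81 in APP/PS1 males and 6.32 and 7.01 in WT males. The females did not overlap and the males did, and its log2 fold change of 0.42 ± 0.11 (SE) missed the threshold with an adjusted p of 0.113 in edgeR's quasi-likelihood test. Gaa, the acid alpha-glucosidase that degrades glycogen, had the lowest fold change of the 36 genes. It was at 273, 320, 327 and 277 in APP/PS1 females and 322 and 337 in WT females, and at 284, 269, 273 and 308 in APP/PS1 males and 289 and 354 in WT males. These ranges overlapped widely, and the log2 fold change was -0.13 ± 0.05 (SE; adjusted p = 0.447 in edgeR's quasi-likelihood test). The remaining 7 had log2 fold changes of 0.15 ± 0.07 (Glb1, beta-galactosidase), 0.09 ± 0.08 (Gla, alpha-galactosidase A), 0.06 ± 0.07 (Galc, which degrades galactosylceramide of myelin), 0.05 ± 0.05 (Neu1, a sialidase), 0.05 ± 0.09 (Idua, alpha-iduronidase), 0.03 ± 0.07 (Manba, beta-mannosidase) and 0.03 ± 0.06 (Fuca1, alpha-fucosidase), none of them called. Exons of Idua are overlapped by 2 antisense genes, those of Galc by 1, and those of Glb1 by 1 gene on the same strand.

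None of the 5 sulfatases was called, and their median log2 fold change was -0.03. Arsb, which removes sulfate from dermatan sulfate, was at 122 to 138 normalized CPM in APP/PS1 mice and 108 to 124 in WT mice, with 7 of 8 APP/PS1 mice above the highest WT mouse and a log2 fold change of 0.15 ± 0.05 (SE; adjusted p = 0.287 in edgeR's quasi-likelihood test). Exons of Arsb are overlapped by 2 antisense genes. Ids, the iduronate sulfatase on the X chromosome, was at 460 to 527 in APP/PS1 mice and 491 to 514 in WT mice. The log2 fold changes of the others were 0.07 ± 0.06 for Arsa, which acts on the myelin lipid sulfatide, -0.07 ± 0.11 for Galns, which acts on keratan sulfate, and -0.11 ± 0.10 for Sgsh, which acts on heparan sulfate. Exons of Arsa and of Sgsh are each overlapped by 1 antisense gene. At an unadjusted p under 0.05 the count of sulfatases was 1 of 5 (Arsb, higher), against 6.15% of all genes higher. The likelihood ratio test and DESeq2 called none.

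Of the 4 lipid hydrolases only acid ceramidase was called. Asah1 (chr8:41340197-41374773, minus strand), which splits ceramide into sphingosine and a fatty acid, was at 62.7, 55.9, 55.0 and 57.4 normalized CPM in APP/PS1 females and 44.5 and 48.8 in WT females. In males it was at 54.1, 59.8, 53.1 and 51.3 against 50.6 and 43.0. All APP/PS1 mice were above all WT mice, by a small margin in males, and the log2 fold change was 0.25 ± 0.05 (SE; 1.19-fold, adjusted p = 0.0237 in edgeR's quasi-likelihood test). Among the 9 called genes this was the smallest difference, with the smallest standard error, and the call was lost without WT male 2 (0.20, adjusted p = 0.109). Lipa, the acid lipase of cholesteryl esters, was at 23.0 to 29.5 in APP/PS1 mice and 20.2 to 25.1 in WT mice (log2 fold change 0.14 ± 0.05). Smpd1, acid sphingomyelinase, which yields the ceramide that Asah1 cleaves, had a log2 fold change of -0.03 ± 0.06, and Ppt1, which removes palmitate from proteins and has 1 antisense gene over its exons, had one of 0.05 ± 0.05.

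Neither activator and neither protease was called in edgeR's quasi-likelihood test, although 3 of these 4 genes (Gm2a, Lgmn and Tpp1) were higher at an unadjusted p under 0.05 and Lgmn was called by the likelihood ratio test and DESeq2. Gm2a, which presents GM2 ganglioside to the enzyme that Hexa is part of, was at 54.8 to 78.5 normalized CPM in APP/PS1 mice and 53.5 to 68.3 in WT mice, with a log2 fold change of 0.13 ± 0.05 (SE; adjusted p = 0.351 in edgeR's quasi-likelihood test). Psap, the precursor of the saposins and the most abundant of the 36 transcripts, was at 1333 to 1502 and 1329 to 1510, a log2 fold change of -0.01 ± 0.04. Lgmn, the asparaginyl endopeptidase legumain, was at 108.4, 99.4, 113.6 and 96.3 in APP/PS1 females and 76.8 and 88.4 in WT females, and at 110.1, 111.0, 88.1 and 94.2 in APP/PS1 males and 82.4 and 99.8 in WT males. As for Naglu, the females did not overlap and the males did, and the log2 fold change was 0.24 ± 0.07 (SE; adjusted p = 0.220 in edgeR's quasi-likelihood test). Tpp1, a tripeptidyl peptidase, was at 58.4 to 85.1 in APP/PS1 mice and 56.8 to 79.1 in WT mice. Its log2 fold change was 0.13 ± 0.05 (SE, adjusted p = 0.299 in edgeR's quasi-likelihood test). The exact permutation p, on levels not corrected by the factors of unwanted variation, was 0.362 for Tpp1, 0.208 for Gm2a and 0.0242 for Lgmn. For Tpp1 and Gm2a the 3 highest libraries were the 3 with high transthyretin.

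Grn (chr11:102430315-102437048, plus strand), the gene of progranulin, a secreted glycoprotein that is cut into granulins in the lysosome, was at 67.9, 68.3, 90.2 and 64.8 normalized CPM in APP/PS1 females and 47.7 and 42.8 in WT females. In males it was at 67.3, 70.3, 54.7 and 68.9 against 41.6 and 52.9. The genotypes did not overlap, and the log2 fold change was 0.60 ± 0.12 (SE; 1.51-fold, adjusted p = 0.04998 in edgeR's quasi-likelihood test). Its call was lost without WT female 1, WT female 2, APP/PS1 male 1 or WT male 1, with adjusted p from 0.108 to 0.204, and in edgeR's quasi-likelihood test without the filter on low counts (adjusted p = 0.118), and 1 antisense gene overlaps its exons. Tfeb, which encodes a transcription factor of lysosomal genes, was at 5.32 to 7.80 in APP/PS1 mice and 5.87 to 6.64 in WT mice. Its log2 fold change of 0.14 ± 0.10 was not called (adjusted p = 0.708 in edgeR's quasi-likelihood test).

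The 27 uncalled genes had log2 fold changes between -0.13 and 0.42, of which 24 lay within 0.15 of zero and 17 within 0.1, with standard errors of 0.04 to 0.11. The mice of a group differed in the called genes. APP/PS1 female 3 was the highest APP/PS1 mouse for 6 of the 9 genes, APP/PS1 male 2 for 2 (Lamp2 and Cd63) and APP/PS1 female 1 for 1 (Asah1). The lowest was APP/PS1 male 3 for 4 genes, male 4 for 3 and females 2 and 4 for 1 each.

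Levels are compared between genes as normalized CPM per kb of exon in the 4 WT mice. The length is that of all annotated exons of a gene merged, for example 14879 bases for Galc. The order therefore depends in part on the annotation. Psap stood highest at 519 ± 27.4 (SD), followed by Laptm4a (112 ± 7.39), Lamp1 (108 ± 3.10), Ids (98.9 ± 2.16), Gaa (68.1 ± 5.73) and Lgmn (37.4 ± 4.25), none of which was called between genotypes. Scarb2, Smpd1, Ppt1 and Hexa came next at 28.4 to 25.8, and the ranges of mean ± SD of neighbours overlapped. Hexa (25.8 ± 2.69) was the most abundant called gene and 10th in the order. Below it came Arsb, Hgsnat, Cd63 (15.2 ± 2.87), Gm2a, Asah1 (13.8 ± 1.06), Grn (13.3 ± 1.48), Neu1, Tpp1, Lamp2 (9.38 ± 1.45), Arsa and Fuca1. Laptm5 (5.75 ± 0.63), Glb1, Mcoln1, Man2b1 (5.30 ± 0.60), Cd68 (4.51 ± 0.43), Gla, Lipa, Galns, Naglu, Gusb (2.48 ± 0.29) and Idua formed a run. Within it the ranges of mean ± SD of neighbours overlapped. Galc, Sgsh, Manba and Tfeb (1.10 ± 0.06) were lowest. Of the 35 neighbouring pairs in the order, 11 had ranges of mean ± SD that did not overlap and 24 had ranges that did. The 3 largest differences between genotypes thus belonged to genes in the lower part of the WT order, at ranks 22 (Laptm5), 26 (Cd68) and 31 (Gusb). Summed over the 36 genes, the level was 4069 to 4584 normalized CPM in APP/PS1 mice (median 4333) and 4011 to 4306 in WT mice (median 4128), which overlapped.

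**Figure D3:**
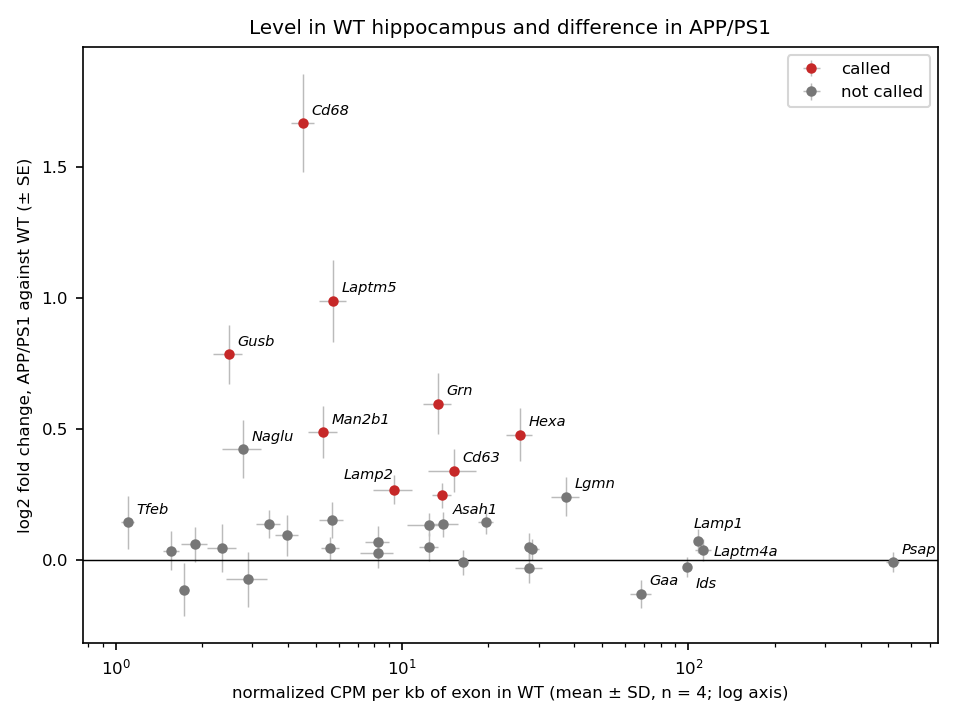
Level of each of the 36 genes in WT mice (normalized CPM per kb of exon, mean ± SD of 4 mice, log axis) against its log2 fold change in APP/PS1 mice (± SE). Red points are called genes. The 5 genes above 50 on the horizontal axis, from Gaa to Psap, lie between -0.13 and 0.07, and Cd68, Laptm5 and Gusb lie between 2.48 and 5.75.

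The study asked whether the genotypes differ in the same way in both sexes. In females 3 of the 36 genes were called, all higher, against 0.728% of all genes called higher: Cd68 (log2 fold change 1.87 ± 0.27, adjusted p = 0.0231), Gusb (0.88 ± 0.16, adjusted p = 0.0412) and Asah1 (0.32 ± 0.07, adjusted p = 0.0801, all in edgeR's quasi-likelihood test). At an unadjusted p under 0.05 the count was 16, all higher, against 6.13% of all genes higher and 3.41% lower. The likelihood ratio test and DESeq2 each called 10, against 1.75% and 1.68% of all genes called higher. Leaving out either WT female left 0 called, and leaving out the 3 libraries with high transthyretin gave 5. In males 0 of the 36 genes were called by edgeR's quasi-likelihood test, against 0.157% of all genes called higher, with 9 at an unadjusted p under 0.05, all higher, against 3.21% of all genes higher and 1.94% lower. The likelihood ratio test called 3 and DESeq2 4 in males, against 0.671% and 0.707% of all genes called higher. Cd68 had the smallest adjusted p in males (0.159 in edgeR's quasi-likelihood test), at a log2 fold change of 1.46 ± 0.27. Without the 3 libraries with high transthyretin, or without APP/PS1 female 3, 3 were called in males, and without APP/PS1 female 4 or APP/PS1 male 3, 1.

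The log2 fold changes had a median of 0.14 in females and 0.06 in males, against 0.02 and 0.00 over all genes tested. They were larger in females for 28 of the 36 genes, against 53.8% of all genes, and for all 9 called genes, for example 0.64 ± 0.15 against 0.32 ± 0.14 for Hexa, 0.72 ± 0.17 against 0.47 ± 0.17 for Grn and 1.02 ± 0.22 against 0.95 ± 0.22 for Laptm5. Both sexes' values share 1 model and its estimate of spread. The difference between the sexes was itself not called for any of the 36 genes by edgeR's quasi-likelihood test of the interaction, nor by the likelihood ratio test or DESeq2, and that test called 0% of all genes. At an unadjusted p under 0.05 it picked 1 of the 36 genes, Lipa, against 3.58% of all genes, which is no more than the background. Lipa was at 29.5, 25.3, 24.5 and 26.1 normalized CPM in APP/PS1 females against 20.2 and 25.1 in WT females, and at 25.4, 27.6, 23.0 and 23.7 in APP/PS1 males against 22.8 and 24.6 in WT males. Both pairs of groups overlapped. Its log2 fold change was 0.27 ± 0.08 in females and 0.00 ± 0.08 in males, a difference of 0.27 ± 0.11 (adjusted p = 0.998 in edgeR's quasi-likelihood test).

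**Figure D4:**
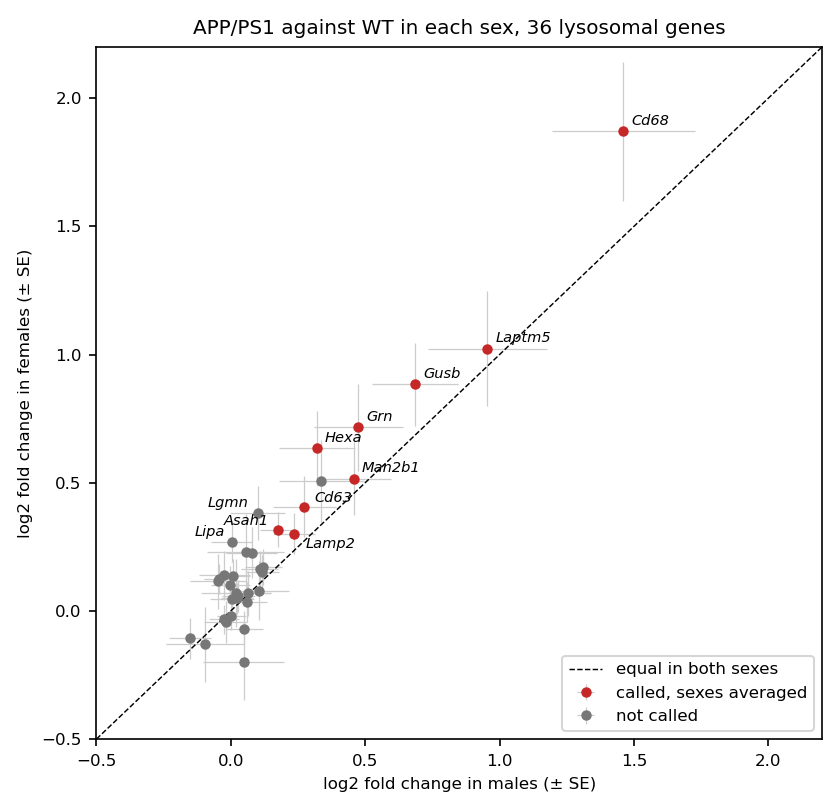
Log2 fold change in APP/PS1 against WT mice in males (horizontal) and females (vertical) for the 36 genes, with standard errors. Red points are the 9 genes called with sexes averaged, all above the dashed line of equal change, but none of the 36 differences between the sexes was called.

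Between females and males, with genotypes averaged, none of the 36 genes was called by edgeR's quasi-likelihood test, the likelihood ratio test or DESeq2, against 0.0999% of all genes in the first of these. The count at an unadjusted p under 0.05 was 1 of 36, against 5.91% of all genes, and this gene, Galc, was higher in females by 0.16 ± 0.07 on the log2 scale (adjusted p = 0.808 in edgeR's quasi-likelihood test). The 3 X-linked genes Lamp2, Gla and Ids differed between the sexes by 0.04 ± 0.06, 0.01 ± 0.08 and 0.00 ± 0.04 on the same scale.

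Other genes of the lysosome are given from lists that do not share a gene with the 36. Of 33 further hydrolases 26 were tested and 1 was higher in edgeR's quasi-likelihood test. Those with a small p that were not called included the carboxypeptidases Scpep1 (0.27 ± 0.08) and Prcp (0.29 ± 0.09) and the nuclease Dnase2a (0.35 ± 0.11), as log2 fold changes. The median of the list was 0.06. Of 31 further membrane and transport genes 28 were tested and 1 was higher, Npc2, a carrier of cholesterol in the lysosomal lumen (0.41 ± 0.07, adjusted p = 0.0147 in edgeR's quasi-likelihood test), with Tpcn2 at 0.52 ± 0.15 and Pip4p1 at 0.10 ± 0.04 not called and a median of 0.04.

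None of 18 tested subunits of the V-ATPase, the proton pump that acidifies lysosomes, was called, none had an unadjusted p under 0.05, and their median was 0.02. Atp6v1g1 (0.11 ± 0.05), Atp6v0b (0.07 ± 0.05), Atp6v1g2 (-0.05 ± 0.04) and Atp6v0a2 (-0.06 ± 0.04) had the smallest p. In the list of sorting and biogenesis genes 28 of 30 were tested and 1 was higher. This was Ctsa, cathepsin A, the protective protein of beta-galactosidase and sialidase (0.30 ± 0.06, adjusted p = 0.0417 in edgeR's quasi-likelihood test). Sort1 (-0.10 ± 0.04), Mitf (0.16 ± 0.07) and Rragd (0.08 ± 0.04) were not called and the median was 0.02. The list of the other cathepsins, lysosomal proteases, had 5 of 9 tested genes called, all higher, with a median of 0.42. Those with the smallest p were Ctsl (0.34 ± 0.06), Ctsd (0.96 ± 0.15), Ctsz (1.01 ± 0.17) and Ctsh (0.75 ± 0.15), with adjusted p of 0.0118 to 0.0474 in edgeR's quasi-likelihood test.

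Markers of microglia moved with the called genes. Of 14 such markers all had a log2 fold change above zero and 8 were called, with a median of 0.72, and their summed level was 513 to 843 normalized CPM in APP/PS1 mice and 356 to 469 in WT mice. Of 11 genes known from microglia at amyloid plaques 7 were called, with a median of 1.68 and sums of 214 to 305 against 134 to 161. Neither sum overlapped between the genotypes, and APP/PS1 female 3, the highest APP/PS1 mouse for 6 of the 9 called genes, held the highest of both sums. The part of microglia in the differences of the 36 genes was not tested.

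Other marker lists gave few calls. The astrocyte list had 1 of 9 genes called (Gfap, 1.06, in a list median of -0.005), and summed to 5626 to 6430 normalized CPM in APP/PS1 mice and 5445 to 5731 in WT mice. With sexes averaged, no gene was called among 8 oligodendrocyte, 8 neuronal, 6 endothelial, 3 tested perivascular macrophage and 11 choroid plexus markers by edgeR's quasi-likelihood test. In all, 0 were higher and 5 lower at an unadjusted p under 0.05, against 6.15% and 3.31% of all genes. The lower ones were 2 choroid plexus markers and 1 marker each of the neuronal, endothelial and perivascular macrophage lists. They made up a larger share of these lists than lower genes did of all genes, and the reason was not tested. In the contrast of females, the same test called 1 choroid plexus marker. The neuronal sum was 8853 to 9755 in APP/PS1 mice and 9198 to 10064 in WT mice. The perivascular macrophage sum was 7.23 to 11.6 and 7.01 to 12.6, with Lyve1, Pf4 and Cbr2 too low to be tested.

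**Figure D5:**
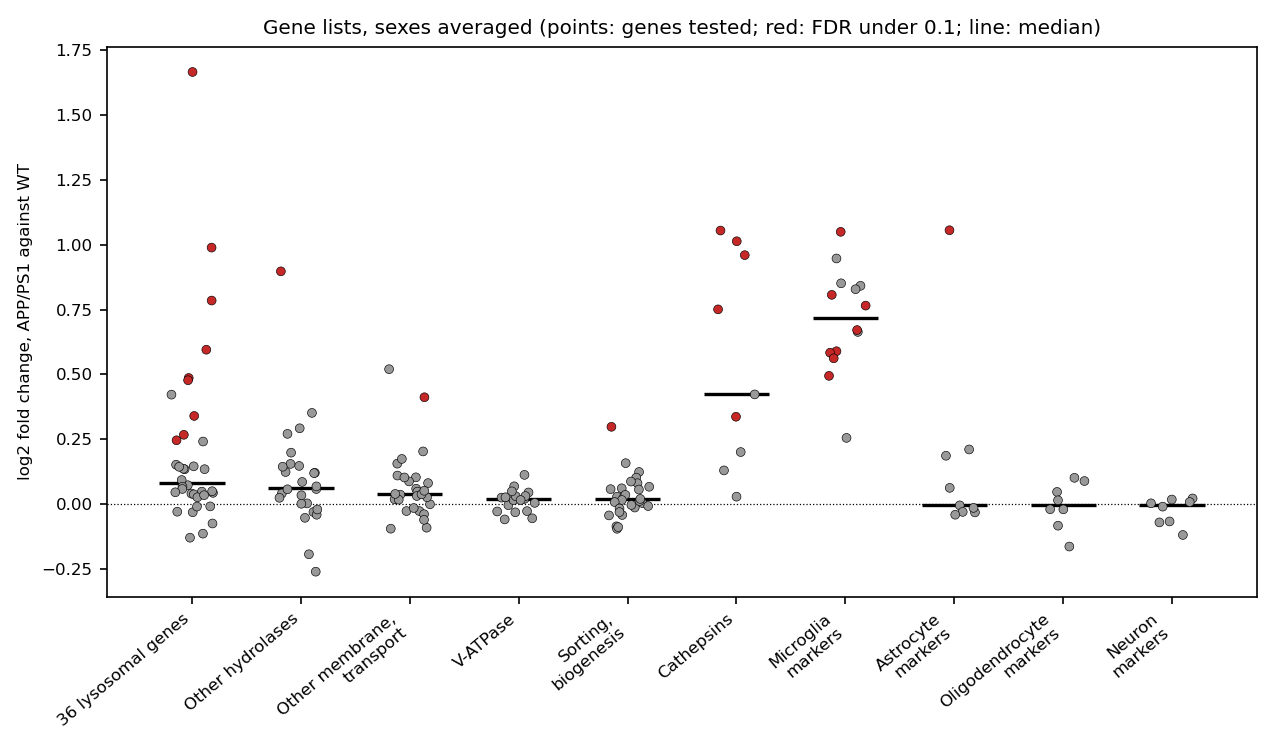
Log2 fold change in APP/PS1 against WT mice, sexes averaged, for the tested genes of each list (points; red at an FDR under 0.1), with the list median (line). The 36 genes have a median of 0.08, the other lysosomal lists 0.02 to 0.06 apart from the cathepsins at 0.42, and microglia markers 0.72.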

How the data were processed

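Poly-A RNA of 12 right hippocampi was sequenced as directional libraries. Per the paper's methods, the authors removed adapters and poor bases with Trimmomatic, mapped the reads to GRCm38 by STAR and quantified them with HTSeq, and they deposited raw counts per gene without normalization. Versions, the annotation release and the strand and multi-mapping options are not given in the sources used here, and reads of near-identical or overlapping genes may be misassigned. Each library was 1 mouse, grouped by its labels.

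A gene was tested when its log2 CPM reached 1 in 3 or more libraries. After upper-quartile scaling, 2 factors of unwanted variation (RUVg, re-implemented, with the 5000 leading genes of a preliminary test kept out of the controls) entered 1 model of the 4 groups. Contrasts were tested in edgeR (version 4.0.16, under R 4.3.3) by the quasi-likelihood method with Benjamini-Hochberg adjustment and an FDR under 0.1. This replaced the likelihood ratio test of the study, which was run as an alternative. Standard errors and fold changes come from this fit, and normalized CPM, given per mouse, are scaled but not corrected by the 2 factors. Fold changes can therefore differ from ratios of the levels. The residual degrees of freedom were 6. Single values were tested by exact permutation over mice. The procedure was also run on simulated counts, drawn without factors of unwanted variation. They cannot show how it handles such factors, and their outcome is not given.

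At these depths the spread between mice, not counting error, limits the precision: within groups, counts of 2 mice differed by a chi-square of 15.5 to 73.0 per degree of freedom over 14 pairs. Positions and exon lengths are from GENCODE M21 (GRCm38), promoters from RefSeq (GRCm38.p6). The 36 genes and the lists were chosen with earlier results of these data known. Full values are given for called genes, the smallest interaction p and the lowest fold change, and of each other list for up to 4 genes with the smallest p. Naglu and Lgmn, with values in every mouse, were added after their values were seen. The results of some genes that this rule names are not reported here.

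Alternatives were DESeq2 (version 1.42.0), the likelihood ratio test, TMM scaling, a CPM filter or none, 0 or 1 factor, another first pass, a block for the replicate number, each sex alone, an FDR of 0.05, leaving out each mouse and, added after the data were seen, leaving out 3 libraries.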

Additional observations from a re-analysis of the deposited data

Results flagged for a closer look

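In the groups of 4 APP/PS1 mice, 8 of 72 sets of values had 1 mouse whose gap to the nearest other mouse, as a share of the whole range, passed Dixon's critical value for 4 values, where chance gives about 1 in 20. Grn stood at 90.2 normalized CPM in APP/PS1 female 3, with the other 3 females at 64.8 to 68.3. In the same mouse Hexa stood at 89.2, with the others at 69.6 to 70.2. APP/PS1 female 4 was low for Tfeb (5.82 against 7.53 to 7.80) and Sgsh (4.88 against 7.09 to 7.53) and high for Ids (525 against 482 to 488). Gla was low in APP/PS1 female 1 (12.6 against 14.3 to 14.6). Among males, Mcoln1 was high in APP/PS1 male 4 (48.1 against 38.8 to 40.3) and Smpd1 in APP/PS1 male 2 (96.4 against 85.6 to 86.3). The calls of Grn and Hexa were kept without APP/PS1 female 3, and the other 6 genes were not called in the comparison of all mice.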

How the results depend on the processing

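The direction did not turn under any alternative for the median log2 fold change or for the averaged fold changes of the 9 called genes, Lipa and Gaa. Of the other 25 genes, 9 changed sign in at least 1 of 22 alternatives, with log2 fold changes from -0.07 (Galns) to 0.07 (Arsa). Fold changes in each sex and of the other lists were not recomputed. The count of 9 genes called with sexes averaged stayed within 1.5 times under the likelihood ratio test (11), DESeq2 (11), TMM scaling (9), no expression filter (7), a CPM filter (9), no factor (6), 1 factor (8), another first pass (10), an FDR of 0.05 (7) and without the 3 libraries with high transthyretin (8). The genes behind these counts changed. Naglu was gained with no expression filter, with another first pass and without APP/PS1 male 3, and Lgmn was gained without the 3 libraries. With the replicate number as a block the count was 4 with sexes averaged and 1 in females. The calls of Asah1, Laptm5, Man2b1, Hexa and Grn were lost there (adjusted p from 0.103 to 0.338 in edgeR's quasi-likelihood test). Of 14 same-numbered pairs 4 had a correlation of deviations over 0.1 (range -0.67 to 0.73). The highest was between WT female 2 and APP/PS1 male 2, both with high transthyretin. The lowest was between APP/PS1 female 1, also with high transthyretin, and WT female 1. The WT pairs of number 1 and of number 2 had to give the same value, 0.08. With 2 WT mice a sex, their deviations from the group mean mirror each other. Of 12 libraries 3 correlated best with their own number. Whether mice with the same number were paired was not tested. The count in females was 10 under both the likelihood ratio test and DESeq2, 5 with 1 factor and 5 without the 3 libraries. In males it was 3 under the likelihood ratio test, 4 under DESeq2, 1 with no factor, 1 with 1 factor, 1 with each sex alone and 3 without the 3 libraries. Leaving out 1 mouse gave 4 to 9 called with sexes averaged, 0 to 4 in females, 0 to 3 in males, 0 for the interaction and for sex, and a median log2 fold change of 0.07 to 0.11. Where a WT mouse is left out, the lone WT mouse of that sex is assumed to vary like the other groups. Cd68 and Gusb were called in all 22 alternatives to the averaged test at its threshold, Asah1 in 20, Laptm5 in 19, Lamp2, Man2b1 and Grn in 16 each, Hexa in 15 and Cd63 in 11. The cause of lost calls was not tested. Each sex rests on 2 WT mice, and without either WT female none of the 36 genes was called in females.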
